A study of Arabidopsis thaliana with 6 samples.

Results

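The type-A response regulators ARR3, ARR4, ARR5, ARR6, ARR7, ARR8, ARR9, ARR15, ARR16 and ARR17 of Arabidopsis thaliana were followed in seedlings of mdf-1 and WT. The 10 genes are all the type-A members of the family, and they were picked by their locus identifiers from the 32998 genes of the count table. All 10 symbols matched the names given to those loci in the table or in RefSeq, and 9 of the 10 had enough counts to be tested. Transcript levels of all 9 were lower in mdf-1, from ARR3 at 10.2% of the WT mean to ARR16 at 75.3%. In edgeR's quasi-likelihood test, 33.9% of all tested genes were lower at an adjusted p below 0.05. ARR16 did not reach that level in 6 of 13 alternative analyses. ARR17 had 1 read in all mdf-1 libraries against 22 in WT.

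Cytokinins are adenine-derived hormones that promote division in the shoot meristem and differentiation at the boundary of the root meristem. They bind histidine kinase receptors in the endoplasmic reticulum and plasma membrane, and phosphate is then passed through histidine phosphotransfer proteins to the response regulators in the nucleus. The type-B response regulators carry a DNA-binding domain and activate transcription of the type-A genes, which are among the fastest genes to be induced by cytokinin. The type-A proteins have the phosphate-receiving domain but no DNA-binding output domain, and they dampen the pathway that induced them, so that their transcripts are widely used as a readout of cytokinin signaling.

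Both genotypes were in the Columbia background and were grown on MS plates with 1% sucrose for 12 days in cycles of 16 h light at 22°C and 8 h dark at 18°C. The mdf-1 line carries a T-DNA insertion in an intron of MDF, a gene for a splicing factor of the spliceosomal tri-snRNP, and it is a single insertion line, with no second allele and no complemented line among these libraries. Each of the 3 libraries per genotype came from the total RNA of a separate biological replicate of complete seedlings, so root and shoot were not separated. MDF itself was counted at 80.7, 82.9 and 78.6 counts per 1000000 counts of the TMM-scaled library (CPM) in mdf-1 and at 66.5, 63.2 and 64.8 in WT, a log2 fold change of 0.32 (SE 0.0488) with an adjusted p of 0.000586 in edgeR's quasi-likelihood test. The count covers the whole gene and does not show on which side of the insertion the reads lie, so it does not check the genotype label.

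Library totals ran from 44738352 to 45418026 counts for mdf-1 and from 47175914 to 50088386 for WT. The trimmed mean of M values (TMM) used for scaling takes most genes as unchanged, and differences are log2 fold changes of mdf-1 over WT with their standard error (SE). A gene was called at an adjusted p below 0.05 in edgeR's quasi-likelihood test with Benjamini-Hochberg adjustment over all 22397 genes tested, and the adjusted p values below are from this test. The calls reached much of the transcriptome, with 33.9% of the tested genes lower and 33.5% higher in mdf-1, and every count of called genes given here has to be read against these shares.

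The start regions of 4 members are printed here because these genes span the range of the changes described below, ARR3 and ARR15 with the largest tested falls, ARR7 with an intermediate one and ARR16 with the smallest. ARR7 and ARR15 are also sister genes. Each sequence runs from 250 bases before to 50 bases after the annotated start of the gene in the RefSeq annotation of TAIR10.1, written 5′ to 3′ along the gene. Capitals mark the core motif AGATT that type-B response regulators are known to bind, the same core with a last C (AGATC), the form that begins with G instead of A (GGATT), and the form with both of these letters (GGATC). Both strands were searched, and a core on the other strand appears as its reverse complement.
ARR3 promoter, chr1:22067184-22067483, minus strand: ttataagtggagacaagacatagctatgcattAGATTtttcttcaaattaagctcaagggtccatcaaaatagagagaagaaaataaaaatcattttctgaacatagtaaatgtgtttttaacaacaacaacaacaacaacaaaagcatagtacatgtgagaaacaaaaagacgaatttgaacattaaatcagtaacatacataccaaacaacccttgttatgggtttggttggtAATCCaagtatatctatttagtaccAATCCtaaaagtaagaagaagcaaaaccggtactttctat
ARR7 promoter, chr1:6579265-6579564, minus strand: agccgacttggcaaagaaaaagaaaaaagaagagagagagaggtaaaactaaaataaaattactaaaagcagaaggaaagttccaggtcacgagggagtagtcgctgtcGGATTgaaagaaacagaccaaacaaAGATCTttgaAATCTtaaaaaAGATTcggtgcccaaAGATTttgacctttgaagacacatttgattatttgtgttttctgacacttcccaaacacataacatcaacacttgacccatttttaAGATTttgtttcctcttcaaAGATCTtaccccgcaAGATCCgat
ARR15 promoter, chr1:28132976-28133275, minus strand: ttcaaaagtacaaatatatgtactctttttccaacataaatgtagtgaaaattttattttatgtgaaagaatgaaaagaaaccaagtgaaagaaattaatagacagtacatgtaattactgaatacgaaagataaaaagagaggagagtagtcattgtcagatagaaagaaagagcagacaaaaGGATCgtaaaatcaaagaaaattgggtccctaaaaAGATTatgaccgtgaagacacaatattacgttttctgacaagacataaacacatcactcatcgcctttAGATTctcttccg
ARR16 promoter, chr2:16969423-16969722, plus strand: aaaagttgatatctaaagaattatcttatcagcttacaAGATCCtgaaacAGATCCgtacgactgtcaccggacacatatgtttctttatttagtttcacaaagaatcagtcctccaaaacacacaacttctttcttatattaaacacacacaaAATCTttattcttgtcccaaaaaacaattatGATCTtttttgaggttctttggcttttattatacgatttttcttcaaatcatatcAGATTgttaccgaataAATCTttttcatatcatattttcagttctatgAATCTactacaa

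ARR7 held 11 core matches in these 300 bases and ARR16 held 9, whereas ARR3 and ARR15 held 3 each. An AGATCT run was counted on both strands and an AGATCC run as 1 AGATC and 1 GGATC. Among the other members, ARR6 and ARR8 had 5 matches, ARR4, ARR5 and ARR17 had 3 and ARR9 had 2. Such short motifs were common in general, since the median over 27443 start regions of protein-coding genes was 2 matches with quartiles of 1 and 4. AGATT was in 69.7% of all these regions and in 9 of the 10 members, AGATC in 32.0% and 5 members, GGATT in 44.1% and 7 members, and GGATC in 22.1% and 3 members. The longer form AGATACG was in 2.04% of all regions and in none of the 10 members within this window. The gene with the largest tested fall and the gene with the smallest had 3 and 9 matches. ARR7 (log2 fold change -1.52) had the most matches and ARR9 (-0.70) the fewest. A relation between matches and falls was not tested, and a match is a description of letters, not of a bound site.

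ARR3 had the largest fall of the tested members. The gene (AT1G59940) lies on chromosome 1 at 22065617 to 22067233 on the minus strand and has 5 exons. Its level was 0.96, 0.67 and 0.43 CPM in mdf-1 and 6.92, 6.43 and 6.90 CPM in WT, which is 10.2% of the WT mean. These values rest on 41, 28 and 19 reads in mdf-1 against 344, 319 and 366 in WT, and the lowest WT library was several-fold above the highest mdf-1 library. The log2 fold change was -3.29 (SE 0.237, adjusted p 1.26e-05) with a 95% interval of -3.84 to -2.75. Of all tested genes, 1.75% had a lower log2 fold change.

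ARR15, a type-A gene that represses cytokinin output in the root stem cell niche of the embryo, was also low in mdf-1. It is AT1G74890, on chromosome 1 at 28131447 to 28133025 on the minus strand. The level was 0.49, 0.93 and 1.18 CPM in mdf-1 and 3.12, 5.04 and 3.37 CPM in WT, from 21, 39 and 52 reads against 155, 250 and 179. The genotypes did not overlap, although the libraries within each genotype spread more than those of the abundant members. ARR15 reached 22.6% of the WT mean, with a log2 fold change of -2.14 (SE 0.321, adjusted p 0.000579), and 5.29% of the tested genes had a lower one.

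ARR7, the sister of ARR15 and a direct target of the shoot stem cell regulator WUSCHEL, fell to 34.8% of the WT mean. It is AT1G19050, on chromosome 1 at 6577833 to 6579314 on the minus strand. Its level was 6.98, 7.08 and 10.01 CPM in mdf-1 against 24.96, 21.4 and 22.7 CPM in WT, and the highest mdf-1 library, replicate 3, remained well below every WT library. The log2 fold change was -1.52 (SE 0.144, adjusted p 6.51e-05).

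ARR4 was the most abundant member. Its protein is known to bind the photoreceptor phytochrome B and to link light and cytokinin signaling, and the gene is AT1G10470, on chromosome 1 at 3441988 to 3444360 on the minus strand. The level was 40.5, 41.9 and 43.4 CPM in mdf-1 and 96.8, 99.5 and 87.0 CPM in WT. Both genotypes were tight and far apart, with at least 1728 reads in every library. ARR4 fell to 44.4% of the WT mean, with a log2 fold change of -1.17 (SE 0.0647, adjusted p 4.46e-06).

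ARR5 and ARR6 are a sister pair, and the ARR5 promoter drives a reporter that is much used to show cytokinin response in tissues. ARR6 (AT5G62920, chromosome 5 at 25252007 to 25254318, minus strand) was at 8.18, 7.08 and 9.05 CPM in mdf-1 and 18.9, 20.2 and 16.7 CPM in WT, with a log2 fold change of -1.20 (SE 0.111, adjusted p 4.13e-05). ARR5 (AT3G48100, chromosome 3 at 17758427 to 17760950, minus strand) was at 8.93, 7.70 and 6.51 CPM in mdf-1 and 13.7, 16.8 and 13.5 CPM in WT, with a log2 fold change of -0.93 (SE 0.136, adjusted p 0.000456). Neither gene had a library of one genotype within the range of the other, and they stood at 43.5% and 52.6% of the WT mean. ARR6 overlaps AT5G62910 on the opposite strand by 348 bases, and AT5G62910 rose in mdf-1 by a log2 fold change of 0.31 (SE 0.0714, adjusted p 0.00502). Whether the counting used strand is not given in the sources used here, so reads in the overlap cannot be assigned to one of these genes.

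ARR8 and ARR9, a sister pair that responds more weakly to added cytokinin than other type-A genes, fell less. ARR8 (AT2G41310, chromosome 2 at 17221840 to 17224880, plus strand) was at 31.6, 35.6 and 34.8 CPM in mdf-1 and 52.5, 53.5 and 49.7 CPM in WT, and ARR9 (AT3G57040, chromosome 3 at 21109059 to 21111567, plus strand) was at 25.01, 32.7 and 31.1 CPM in mdf-1 and 48.7, 49.6 and 45.8 CPM in WT. The mdf-1 libraries again lay below all WT libraries, with replicate 1 the lowest of the mutant for both genes. The log2 fold changes were -0.61 (SE 0.0624, adjusted p 6.70e-05) for ARR8 and -0.70 (SE 0.0975, adjusted p 0.00037) for ARR9, or 65.5% and 61.6% of the WT mean. Both genes overlap long non-coding loci, by 299 bases for ARR8 and 231 bases for ARR9, but those loci had a mean of 3.17 and 0 reads per library.

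ARR16 and ARR17 are also a sister pair. ARR16 (AT2G40670, chromosome 2 at 16969673 to 16972113, plus strand) was at 2.95, 3.45 and 2.52 CPM in mdf-1 and 4.30, 4.07 and 3.47 CPM in WT, so that the lowest WT library was only 1.01 times the highest mdf-1 library. The log2 fold change of -0.41 (SE 0.160, adjusted p 0.0494) had a 95% interval of -0.78 to -0.04. This call was lost in 6 of 13 alternative analyses, whose adjusted p ran from 0.0122 to 0.152. It was lost with DESeq2 (adjusted p 0.0522), without a filter on low counts (0.0557) and, by edgeR, when mdf-1 replicate 1 (0.0882), mdf-1 replicate 3 (0.108), WT replicate 1 (0.152) or WT replicate 2 (0.120) was left out.

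ARR17 (AT3G56380, chromosome 3 at 20905264 to 20906397, plus strand) had 0, 0 and 1 reads in mdf-1 and 6, 8 and 8 in WT and was removed by the filter on low counts. No mdf-1 library reached a WT library. The ratio of the summed reads, corrected for library size, was 5.39% with an exact 95% interval of 0.131% to 33.3%, which covers counting error only. ARR17 was tested in both analyses that kept such genes, with an adjusted p of 0.00668 in edgeR without the filter and 0.0135 in DESeq2.

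**Figure D1:**
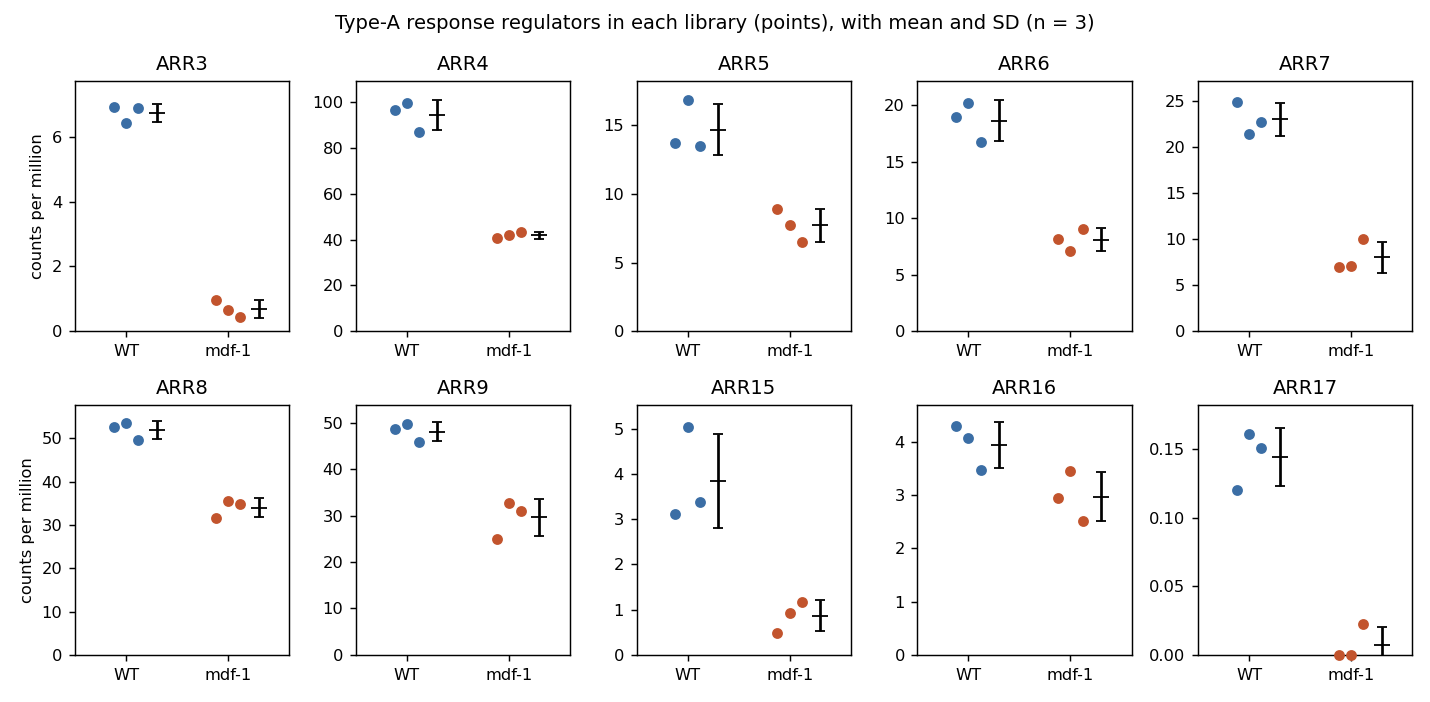
Levels of the 10 type-A response regulators in each of the 3 WT and 3 mdf-1 libraries, in TMM-scaled CPM on a linear axis from 0 that differs between panels; points are libraries, in the order of their replicate numbers, and bars give the mean and SD (n = 3; the lower SD bar of ARR17 in mdf-1 is cut at 0). The mdf-1 points lie below the WT points in every panel, with the smallest gap for ARR16, where the lowest WT library was 1.01 times the highest mdf-1 library.

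For all 10 genes the 3 mdf-1 libraries were below the 3 WT libraries, a pattern found for 37.0% of the tested genes. All 9 tested members passed the test in the lower direction, where 33.9% of the tested genes did, and none was higher in edgeR or in DESeq2. The median log2 fold change of the 9 members was -1.17, against 0.01 over all tested genes. Of the members, 5 had a log2 fold change below -1 with an adjusted p below 0.05 in edgeR, which 13.8% of the tested genes had.

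**Figure D2:**
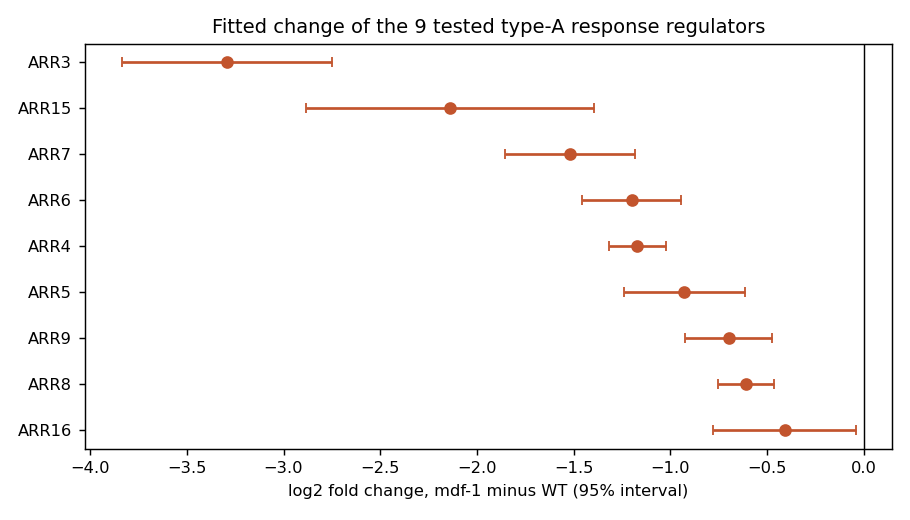
Log2 fold change of mdf-1 over WT for the 9 tested type-A response regulators, with the 95% interval from edgeR's quasi-likelihood fit (n = 3 libraries per genotype). All intervals lie below 0, from ARR3 at -3.29 to ARR16 at -0.41, whose interval ends at -0.04.

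On the RPKM scale (CPM per kilobase of exon), ARR4 was the highest member in WT at 44.99 ± 3.15 (SD, n = 3), followed by ARR9 at 25.4 ± 1.053, ARR7 at 24.4 ± 1.90 and ARR8 at 21.9 ± 0.831. ARR6 at 12.8 ± 1.23 and ARR5 at 10.12 ± 1.28 came next, and ARR3 (5.15 ± 0.211), ARR15 (3.56 ± 0.967), ARR16 (1.90 ± 0.208) and ARR17 (0.233 ± 0.0341) closed the order. The libraries of ARR9 and ARR7 overlapped, as did those of ARR6 and ARR5, so the order within these neighbours is not resolved. In mdf-1 the RPKM order began with ARR4 at 19.98 ± 0.693, ARR9 at 15.6 ± 2.15, ARR8 at 14.3 ± 0.889 and ARR7 at 8.51 ± 1.82, so that ARR7 came after ARR8, and the libraries of ARR9 and ARR8 overlapped. ARR6 (5.56 ± 0.677) and ARR5 (5.32 ± 0.834) still overlapped. ARR16 at 1.43 ± 0.223 RPKM now stood above ARR15 at 0.805 ± 0.323 and ARR3 at 0.524 ± 0.202, which overlapped, whereas in WT it was below both. The RPKM level in WT and the log2 fold change had a Spearman correlation of 0.0833 across the 9 tested members, given as a description because the genes share the same libraries.

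The 10 members together took 125.6, 137.1 and 139.0 CPM in mdf-1 and 270.2, 276.8 and 249.3 CPM in WT. The mutant mean of 133.9 ± 7.25 CPM was 50.5% of the WT mean of 265.4 ± 14.4 CPM (SD, n = 3), a log2 difference of -0.99. ARR4 alone gave 35.6% of this sum in WT and 31.3% in mdf-1, so the sum mostly follows the abundant members and not ARR3 or ARR15.

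The ratio within each of the 5 sister pairs was compared between the genotypes with an exact two-sided permutation test over libraries, which cannot give a p below 0.1 with 3 against 3. No adjusted p over the 5 pairs was below 0.167. The log2 ratio of ARR3 to ARR4 was -5.38, -5.94 and -6.62 in mdf-1 and -3.80, -3.95 and -3.65 in WT, a difference of -2.18 with no overlap (exact p 0.1). ARR3 was thus lower relative to its sister in every mdf-1 library than in any WT library. The log2 ratio of ARR7 to ARR15 was 3.80, 2.91 and 3.07 in mdf-1 and 3.00, 2.09 and 2.75 in WT, a difference of 0.65 whose groups overlapped (exact p 0.2). The log2 ratio of ARR5 to ARR6 was 0.13, 0.12 and -0.47 in mdf-1 and -0.47, -0.27 and -0.31 in WT, and this difference of 0.27 was also within the overlap (exact p 0.4). ARR8 and ARR9 had the smallest difference of the 5 pairs.

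Their log2 ratio was 0.34, 0.12 and 0.16 in mdf-1 and 0.11, 0.11 and 0.12 in WT, a difference of 0.10 (exact p 0.1) that fell to 0.03 without mdf-1 replicate 1. The ratio of ARR16 to ARR17 rested on a single ARR17 read in mdf-1. Its log2 difference of 2.77 (exact p 0.1) became 0.57 when 5 instead of 0.5 was added to each count.

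**Figure D3:**
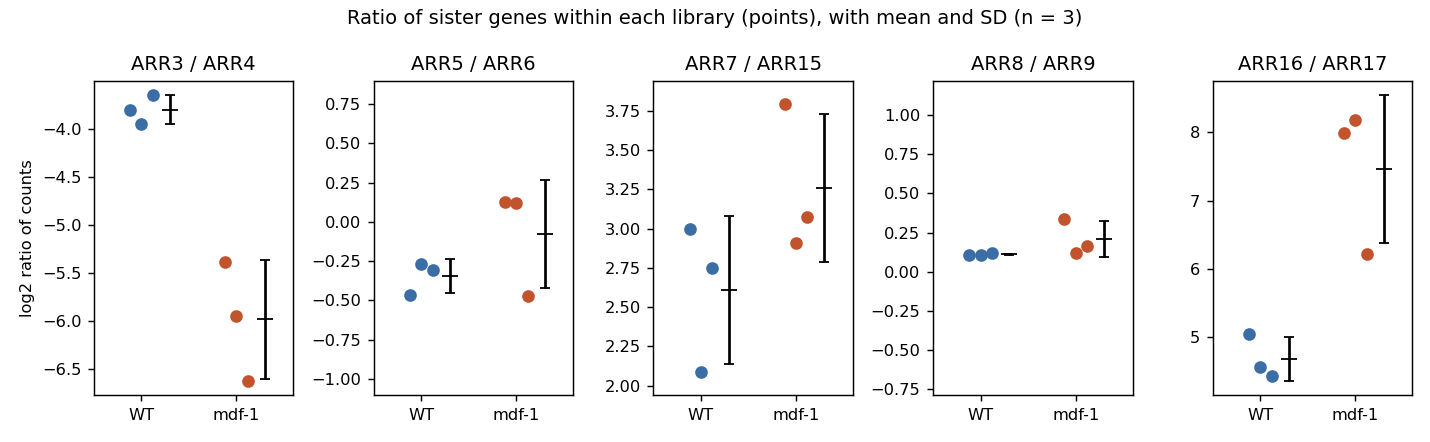
Log2 ratio of the counts of the sister genes in each library for the 5 pairs, with 0.5 added to each count; points are the 3 WT and 3 mdf-1 libraries, bars give the mean and SD, and each panel has its own axis range. The genotypes are separate for ARR3 and ARR4, ARR8 and ARR9, and ARR16 and ARR17, with differences of -2.18, 0.10 and 2.77, and they overlap for the other pairs.

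Upstream of the type-A genes, all 3 cytokinin receptors were lower in mdf-1, where 33.9% of all tested genes were, by very different amounts. AHK4, the receptor known for its role in the vascular cells of the root, was at 14.7, 17.8 and 19.2 CPM in mdf-1 and 45.01, 47.6 and 43.4 CPM in WT, 38.0% of the WT mean (log2 fold change -1.40, SE 0.0966, adjusted p 1.12e-05 in edgeR). AHK2 was at 26.6, 28.5 and 31.0 CPM in mdf-1 and 47.8, 43.4 and 49.8 CPM in WT (log2 fold change -0.71, SE 0.0770, adjusted p 8.66e-05). AHK3, the receptor most tied to the shoot and to leaf longevity, differed little, at 125.3, 131.0 and 123.2 CPM against 139.0, 138.4 and 138.6 CPM. Its log2 fold change of -0.13 (SE 0.0494, adjusted p 0.0419) lost its call in 7 of 13 alternatives, with adjusted p values up to 0.111. These were the analysis without a filter, the one with a replicate term, and those without mdf-1 replicate 1, mdf-1 replicate 3 or any 1 of the WT libraries.

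Of the 6 phosphotransfer proteins, 2 rose, 1 fell and 3 did not pass the test, which is no more in either direction than the 33.5% higher and 33.9% lower of all tested genes. AHP5 rose by a log2 fold change of 0.89 (SE 0.0692, adjusted p 1.74e-05) and AHP3 by 0.58 (SE 0.0636, adjusted p 9.53e-05), whereas AHP1 fell, with a log2 fold change of -1.07 (SE 0.106, adjusted p 5.94e-05). Of the 11 type-B response regulators, 6 were tested. Of these, 4 fell, ARR14 rose and ARR10 did not pass the test, against 33.9% lower and 33.5% higher of all tested genes. The log2 fold changes were -0.76 (SE 0.138, adjusted p 0.00147) for ARR11, -0.54 (SE 0.0575, adjusted p 7.82e-05) for ARR12 and -0.42 (SE 0.0726, adjusted p 0.00109) for ARR2, and 0.39 (SE 0.0974, adjusted p 0.00756) for ARR14. Under scaling by total counts ARR14 had a log2 fold change of 0.24 and lost its call (adjusted p 0.0555 in edgeR). ARR10, with ARR1 and ARR12 one of the type-B regulators that carry most of the response in seedlings, was at 25.9, 27.0 and 27.1 CPM in mdf-1 and 26.3, 29.7 and 27.2 CPM in WT. ARR1 had the smallest of the 4 falls, to 87.6% of the WT mean (log2 fold change -0.19, SE 0.0578, adjusted p 0.0182 in edgeR). The type-A genes thus had larger fitted falls than the type-B genes in most cases, with medians of -1.17 and -0.31 over the tested members of each list. This difference between the lists was not tested. The type-C regulators ARR22 and ARR24 had at most 1 read in any library.

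The cytokinin response factors are AP2/ERF transcription factors, some of which are induced by cytokinin. Of the 6, 5 fell and 1 rose, against 33.9% lower and 33.5% higher of all tested genes. CRF2 was at 4.29, 5.12 and 6.33 CPM in mdf-1 and 27.8, 23.9 and 25.2 CPM in WT, with a log2 fold change of -2.29 (SE 0.136, adjusted p 7.14e-06). CRF4 (log2 fold change -1.02, SE 0.135, adjusted p 0.000256) and CRF1 (-0.70, SE 0.171, adjusted p 0.00668) were lower as well. CRF6, which is tied to leaf senescence and oxidative stress, rose by a log2 fold change of 1.08 (SE 0.102, adjusted p 4.36e-05).

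Genes of cytokinin hydroxylation and activation were more often lower than higher, while those of synthesis had 1 lower and 1 higher. Of 9 isopentenyltransferases, which start the synthesis or modify tRNA, 5 were tested, of which IPT5 fell by 1.40 on the log2 scale (SE 0.236, adjusted p 0.000957) and the tRNA-modifying IPT2 rose by 0.26 (SE 0.0811, adjusted p 0.0217), a call that was lost in 4 of 13 alternatives. These were upper-quartile scaling, scaling by total counts, and the analyses without WT replicate 2 or WT replicate 3, with adjusted p values of 0.0586, 0.282, 0.0761 and 0.0839. The 10 genes that hydroxylate cytokinins or release the active base had 8 members lower and none higher, against 33.9% lower and 33.5% higher of all tested genes. Among them were LOG1 at 8.81, 9.57 and 12.7 CPM in mdf-1 and 37.8, 33.9 and 41.3 CPM in WT (log2 fold change -1.86, SE 0.144, adjusted p 3.31e-05), LOG7 (-1.66, SE 0.118, adjusted p 1.22e-05) and LOG5 (-1.13, SE 0.315, adjusted p 0.0139).

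Of the 7 cytokinin oxidases, which degrade the hormone, 3 were higher, 3 lower and 1 not called, near the 33.5% higher and 33.9% lower of all tested genes. CKX1 was at 7.15, 10.4 and 9.14 CPM in mdf-1 and 3.22, 2.42 and 2.28 CPM in WT, a log2 fold change of 1.75 (SE 0.185, adjusted p 7.84e-05). CKX5 and CKX7 rose by log2 fold changes of 1.07 (SE 0.170, adjusted p 0.000688) and 0.71 (SE 0.0632, adjusted p 3.29e-05). CKX4 was at 1.20, 1.46 and 1.11 CPM in mdf-1 and 4.71, 4.64 and 5.13 CPM in WT (log2 fold change -1.94, SE 0.154, adjusted p 1.95e-05), and CKX6 had a log2 fold change of -1.75 (SE 0.136, adjusted p 1.80e-05). Where 33.9% of all tested genes were lower, 2 of the 4 glucosyltransferases and transporters fell. These were UGT76C2, which glucosylates cytokinins (log2 fold change -0.73, SE 0.106, adjusted p 0.000438), and ABCG14, which exports root cytokinins for transport to the shoot (-0.45, SE 0.0665, adjusted p 0.000456).

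Over the 58 cytokinin genes outside the type-A family 47 were tested, of which 27 were lower, 8 were higher and 12 did not pass the test, with a median log2 fold change of -0.54. Over all tested genes 33.9% were lower and 33.5% higher. The type-A family was the longest of the cytokinin lists in which every tested gene was lower. The 10 genes of hydroxylation and activation, 8 lower and 0 higher, had a median log2 fold change of -1.39, below the -1.17 of the type-A genes.

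**Figure D4:**
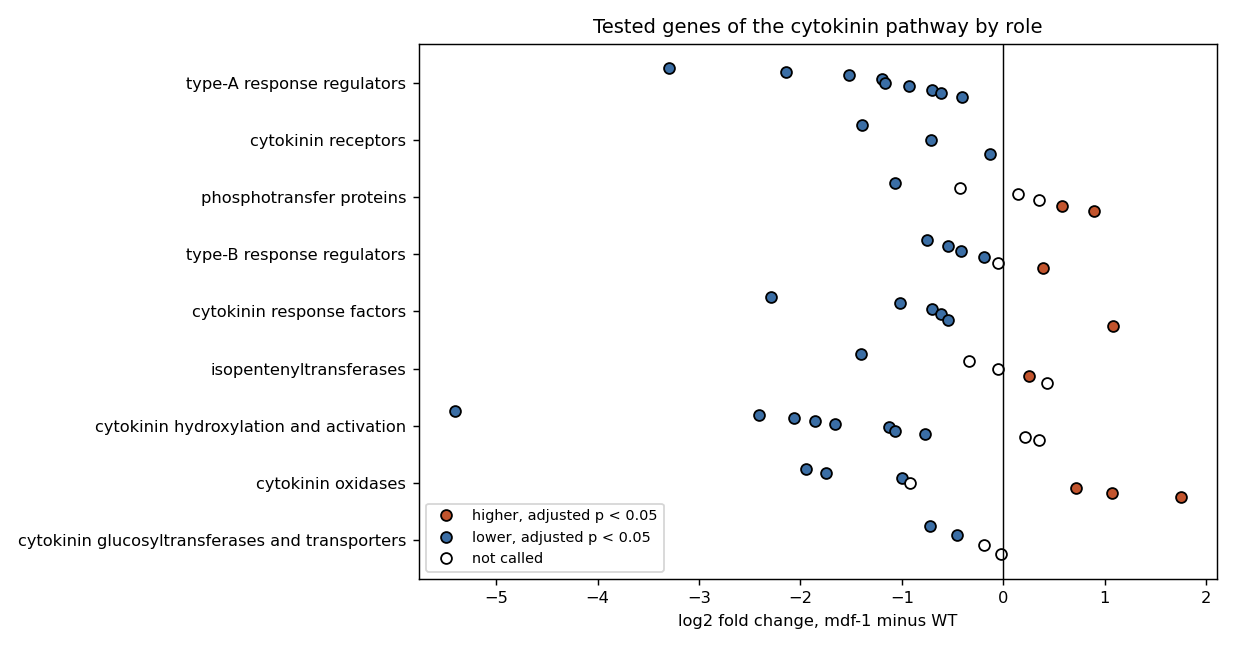
Log2 fold change of mdf-1 over WT for each tested gene of the cytokinin lists, 1 point per gene and 1 row per list, filled where the adjusted p of edgeR's quasi-likelihood test was below 0.05. All 9 tested type-A genes lie left of 0, from -3.29 to -0.41, while the oxidases and phosphotransfer proteins lie on both sides; the leftmost point, LOG2, rests on 0, 0 and 1 reads in mdf-1.

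Several type-A genes and AHK4 are expressed strongly in roots, and whole seedlings were sampled. Of 20 markers of the root stem cell niche, root hairs and endodermis, 18 were also lower in mdf-1 and none was higher, against 33.9% lower and 33.5% higher of all tested genes. Their summed level ranged from 50.6 to 54.4 CPM in mdf-1 and from 67.7 to 71.2 CPM in WT for the stem cell niche (4 of 6 lower). It ranged from 12.2 to 14.3 and 42.3 to 59.7 for root hairs (6 of 6), and from 21.0 to 25.3 and 93.9 to 112.5 for the endodermis (8 of 8). The phloem and procambium list, which is not part of these 20 root markers, summed to 156.6 to 164.5 CPM in mdf-1 and 258.6 to 272.9 CPM in WT (3 of 4 lower). The niche sum was mostly SCR, with means of 39.5 CPM in mdf-1 and 46.9 CPM in WT. PLT1, PLT2 and BBM were at 8.55%, 16.8% and 23.0% of their WT means. PLT3 at 80.3% and WOX5 at 120.4% were not called. In the phloem and procambium list SUC2 was at 37.5%, TMO5 at 52.3%, LHW at 89.0% and APL, not called, at 104.5%. Of the 6 shoot meristem markers 4 were tested, all but WUS and CLV3, with 2 higher and 1 lower. The 6 summed to between 46.2 and 55.4 CPM in mdf-1 and between 65.6 and 66.5 CPM in WT. This sum followed CLV1, at 19.0, 19.0 and 22.8 CPM in mdf-1 and 43.7, 45.4 and 45.9 CPM in WT, while STM and KNAT1 rose, and these genes were singled out after their values were seen. Of the 8 leaf photosynthesis markers 2 were higher, 1 was lower and 5 were not called. PSBO1 was at 141.3% and PSAF at 133.4% of the WT mean, and LHCA1 at 66.2%. Only the sum of the 8 overlapped between the genotypes, at 17366 to 22341 CPM in mdf-1 against 19540 to 21458 CPM in WT. None of these markers was at 0 in all libraries of a genotype. The summed levels of the type-A genes, of the root lists, of the phloem and procambium list and of the shoot meristem list were thus lower in mdf-1. The part of these markers in the type-A result was not tested. In whole seedlings fewer cells of a type and less RNA per cell cannot be told apart.

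Of the 20 protein-coding genes next to the 10 members 17 were tested, of which 8 were lower, 3 higher and 6 not called, next to 33.9% lower and 33.5% higher of all tested genes. Both neighbours of ARR3 rose, AT1G59930 by a log2 fold change of 2.61 (SE 0.427, adjusted p 0.000811) and AT1G59950 by 5.05 (SE 1.10, adjusted p 0.00842), whereas both neighbours of ARR4 (log2 fold changes -2.27 and -1.39) and both of ARR8 (-1.12 and -0.80) fell, each with a lower log2 fold change than the member beside it. Both neighbours of ARR9 did not pass the test, with log2 fold changes of -0.02 (SE 0.0714) and 0.03 (SE 0.0650), the nearer one lying 132 bases away. These neighbours were singled out after their values were seen.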

How the data were processed

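Total RNA of complete 12-day-old seedlings was made into libraries with the NEBNext Ultra RNA kit and sequenced on an Illumina NovaSeq. The submitters' processing notes name fastp, HISAT2, featureCounts and the TAIR10 build. Strand setting, treatment of shared reads and program versions are not given in the sources used here. Raw read counts per gene and library were deposited by the authors and were used without change, with the exonic length of each gene. The 12 per-sample columns of FPKM and scaled counts and the 3 columns of the authors' comparison (fold change, p and adjusted p) were not used.

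Counts were filtered with filterByExpr, scaled by TMM and compared in edgeR 4.0.16 (R 4.3.3) by its quasi-likelihood F-test (glmQLFTest after a robust glmQLFit), with genotype as the only term and Benjamini-Hochberg adjustment over 22397 genes. The fit was tested on simulated data. RPKM values are TMM-scaled CPM per kilobase of exon. Replicate libraries differed by more than counting noise (chi-square per degree of freedom 7.40 to 61.6), so all 6 were kept. Permutation tests and intervals used scipy 1.17.1, and figures matplotlib 3.10.9. Promoters were read from TAIR10.1, where 27443 of 27444 protein-coding genes had the start and end of the deposited table.

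Alternatives were DESeq2 1.42.0, other scalings and filters, an adjusted p below 0.01, a replicate term and each library left out. Named genes were all members, MDF, any receptor and, per cytokinin list, up to 3 genes of largest change in each direction with an adjusted p below 0.05 and a mean count of at least 50. ARR1, ARR10, ARR22, ARR24, LOG2, markers and neighbours are named beyond this rule. Members and lists were chosen with earlier results of these data known.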

Additional observations from a re-analysis of the deposited data

How the results depend on the processing

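All 9 tested members had a negative log2 fold change in every alternative, and between 8 and 9 type-A genes were called lower and 0 higher, with ARR16 the one whose call was lost. In DESeq2 and without the filter the count stayed at 9 because ARR17 was called there while ARR16 was not. Over all genes, the alternatives at an adjusted p below 0.05 gave 6807 to 9339 lower and 5561 to 7775 higher, of 20649 to 27547 tested. Of 457 single-gene values under alternatives, all read at an adjusted p below 0.05, 0 changed direction and 18 lost their call. They lay in 4 of 36 genes (ARR16, AHK3, IPT2 and ARR14, the last under total counts with an adjusted p of 0.0555 in edgeR). The threshold of 0.01 was not among these values, and LOG5 (adjusted p 0.0139 in edgeR) also missed it. At 0.01 the other cytokinin genes gave 21 lower and 7 higher instead of 27 and 8. The share of all tested genes at 0.01 was not counted. Scaling by total counts moved the median of all tested genes to -0.14 on the log2 scale and the summed type-A difference from -0.99 to -1.13, and it gave 9339 lower against 5561 higher genes where TMM gave 7585 against 7504. Leaving out 1 library gave -1.03 to -0.94 for the summed difference, -3.61 to -3.05 for ARR3 and -2.44 to -1.86 for ARR15. It gave log2 ratio differences of -2.48 to -1.86 for ARR3 and ARR4. Of the other cytokinin genes 24 to 29 were then lower and 7 to 12 higher, next to 6807 to 7882 lower and 6608 to 7775 higher of all tested genes.

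Replicate numbers are shared between the genotypes, but same-numbered libraries did not deviate together (correlations 0.04, -0.00 and 0.08), so they were not treated as paired. With the replicate block in edgeR the type-A calls remained 9 lower and 0 higher, and AHK3 lost its call (adjusted p 0.0671). The other cytokinin genes gave 26 lower and 10 higher, next to 7441 lower and 7302 higher of all 22397 tested genes. Depth limits ARR17 most, with 23 reads in all, and then ARR3 and ARR15 in mdf-1. A count of 0 allows up to 3 reads, and 3 libraries per genotype cannot give a permutation p below 0.1.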
